A study of Ovis aries with 16 samples.

Results

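The SLC25 family of mitochondrial carriers was followed across liver and skeletal muscle of prenatally BPA-exposed and control sheep. Its members were the rows whose symbol begins with SLC25A and a number, with a pair of family genes left out by the rule and a mean of at least 10 normalized reads over the 8 libraries of liver or of muscle. Of 42 rows that matched, 39 met the mean, out of 28524 rows in the whole table. They carry 38 symbols, because SLC25A37 has a further row named SLC25A37_1. SLC25A31, SLC25A41 and SLC25A53 were below the mean in both tissues. SLC25A41 averaged 5.48 normalized reads in liver and 9.23 in muscle, just outside it, and SLC25A14, with 29.7 in liver and 24.9 in muscle, was the lowest member inside it. Of the 39 members, 36 reached the mean in both tissues. SLC25A21, SLC25A45 and SLC25A48 reached it in liver only, so a difference between the tissues was built into their selection.

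SLC25 proteins sit in the inner mitochondrial membrane, apart from a few in the outer membrane or in peroxisomes, and each exchanges or imports a small set of metabolites. They bring in ADP and phosphate for ATP synthesis, pass reducing equivalents and amino acids between cytosol and matrix, and supply cofactors, nucleotides and iron. In liver the family serves the urea cycle and amino acid breakdown, and in muscle it serves the high turnover of ATP. The roles given below are those described for the human or mouse proteins.

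The libraries fell into 4 groups of 4 libraries each, all from female Suffolk sheep of about 21 months. BPA livers and BPA muscles came from sheep 910, 918, 977 and 984, whose mothers were injected under the skin with bisphenol A (BPA, a plasticizer with oestrogen-like activity) at 0.5 mg per kg per day in corn oil from day 30 to day 90 of gestation. Control livers and control muscles came from sheep 902, 908, 924 and 928, whose mothers received corn oil alone. All 8 animals were fasted for 48 hours and sampled late in the follicular phase after oestrus was synchronized, with liver taken from the left lobe and muscle from the vastus lateralis. The design sets prenatal BPA against vehicle in each tissue. Each library of a group came from a different sheep, so p-values measure the spread between animals. Values below are given in the order of these sheep numbers within each group.

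Libraries held 4.66 to 17.92 M reads in BPA liver, 4.39 to 19.28 in control liver, 15.15 to 26.54 in BPA muscle and 16.16 to 28.54 in control muscle. Liver 910 (17.92 M) was the only BPA liver above 15 M reads, and liver 902 (4.39 M) was the only control liver below it. Markers of hepatocytes, 9 of 12 listed being found, summed to 287700 to 1459000 normalized reads in BPA livers and 70950 to 1477000 in control livers, with the lowest value in liver 902. That library also held 120500 normalized reads of 10 fibroblast and stellate cell markers, against 2681 to 5686 in BPA livers and 6060 to 8037 in the other control livers. The markers of skeletal muscle fibres, 11 of 12 listed being found, summed to at most 1041 in any liver and to at least 6440000 in any muscle. No marker of these lists was at 0 in all libraries of a group. Across the members, liver 902 lay a median of 0.63 log2 units below the mean of all livers, BPA and control together. The other livers lay between -0.13 and 0.18 of that mean, so these deviations also hold any difference between the groups. Counts of members called in liver are therefore also given without livers 902 and 910. Some tissue differences are also given without the 4 livers under 15 M reads. That fit holds 910 as its only BPA liver, so its estimates are given without p-values.

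The aspartate-glutamate carrier SLC25A13 was higher in liver and its relative SLC25A12 was lower. The basic amino acid carrier SLC25A29 and the ornithine carrier SLC25A15 were higher in liver, while the amino acid carriers SLC25A38 and SLC25A44 did not pass. The ADP/ATP carrier SLC25A4 and the phosphate carrier SLC25A3 were lower. Tested with limma on log2(value + 1) over all 16 libraries, 29 of the 39 members differed at an adjusted p under 0.05. Of these, 15 were higher in liver, SLC25A21, SLC25A45 and SLC25A48 among them, where 36.6% of the 16718 genes tested were, and 14 were lower, where 35% were. The share of members that differed was close to that of all genes (71.6%), and their median log2 difference was -0.06, against 0.09 for all genes. Among the 36 members with a mean of 10 in both tissues, 12 were higher in liver (33% of such genes) and 14 lower (35.9%). In these bulk libraries fewer cells of a type and less RNA per cell cannot be told apart.

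**Figure D1:**
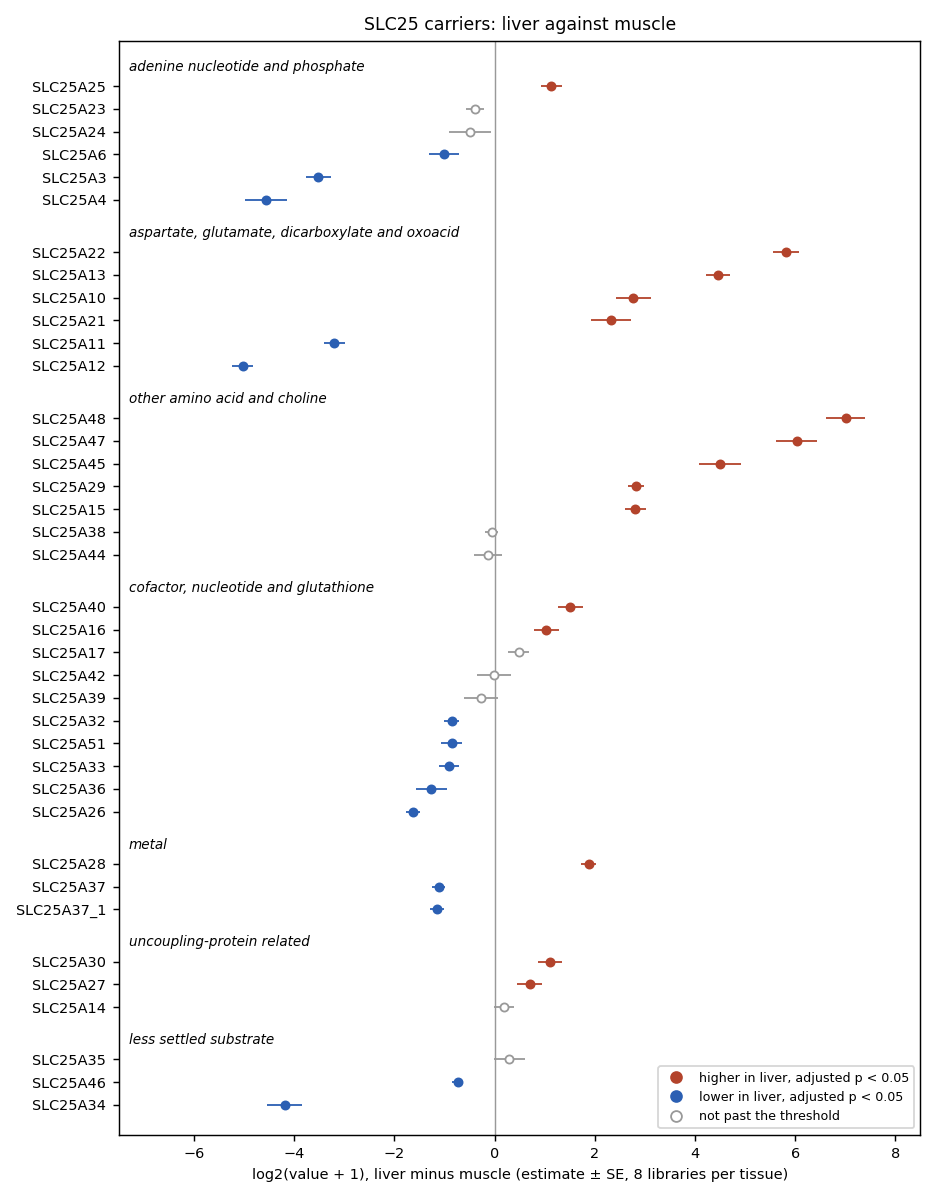
Difference between liver and muscle for 38 of the 39 SLC25 members, on the log2(value + 1) scale, grouped by the role of the carrier. Points are limma estimates over 8 libraries per tissue with their standard errors, and filled points passed an adjusted p of 0.05. SLC25A47 stands at 6.03 on the liver side and SLC25A12 at -5.03 on the muscle side. SLC25A48, SLC25A45 and SLC25A21 met the mean in liver alone, so their side was fixed by the filter.

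Among the 6 carriers of adenine nucleotides and phosphate, 3 were lower and 1 was higher in liver. No row carried the symbol SLC25A5, so this further ADP/ATP carrier could not be followed. SLC25A4, the ADP/ATP exchanger of heart and skeletal muscle, ranged from 194 to 2247 normalized reads in the 8 livers with a median of 884, and from 14180 to 29720 in the 8 muscles with a median of 20120. No liver came near any muscle, and the log2 difference was -4.57 (SE 0.42, limma adjusted p = 6.28e-08). SLC25A3, which imports phosphate, had 277 to 1397 with a median of 786 in liver and 6159 to 10240 with a median of 7470 in muscle. Its log2 difference of -3.52 (SE 0.25, limma adjusted p = 1.97e-09) again separated all livers from all muscles.

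The ubiquitous ADP/ATP carrier SLC25A6 behaved differently from SLC25A4. It ranged from 275 to 2209 normalized reads with a median of 1872 in liver and from 1704 to 4240 with a median of 1978 in muscle, so the tissues overlapped. The log2 difference was -1.01 (SE 0.30, limma adjusted p = 0.00668). It was 0.08 within control animals alone (limma adjusted p = 0.64) and -2.09 within BPA animals alone (limma adjusted p = 0.0048). Without the 4 livers under 15 M reads it was -0.17. In 4 of the 8 animals SLC25A6 was higher in liver than in muscle, BPA animal 910 among them (1846 against 1807). The other BPA livers had 275 to 504 and were all under 15 M reads, so BPA and depth cannot be told apart there. SLC25A25, a calcium-regulated exchanger of ATP-magnesium for phosphate, was higher in liver by 1.13 (SE 0.21, adjusted p = 0.000146), in 8 of 8 animals. Its relatives SLC25A23 and SLC25A24 had log2 differences of -0.39 and -0.49 and did not pass. Without livers 902 and 910 both passed, at -0.41 (limma adjusted p = 0.00601) and -0.84 (limma adjusted p = 0.00315). Without the 4 livers under 15 M reads SLC25A24 was at -1.04 and SLC25A23 at 0.06. SLC25A23 overlaps SLC25A41 in the reference gene table, so reads of these 2 genes cannot be told apart unless strand was used in counting.

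All 6 carriers of aspartate, glutamate, dicarboxylates and oxoacids differed, 4 higher and 2 lower in liver. SLC25A13 and SLC25A12 both export aspartate from the matrix in exchange for glutamate, the step that drives the malate-aspartate shuttle. SLC25A13, the liver form also called citrin, ranged from 699 to 3852 normalized reads with a median of 2347 in liver and from 71.3 to 126 with a median of 91.8 in muscle. SLC25A12, also called aralar, ranged from 37.6 to 112 with a median of 56.2 in liver and from 1373 to 2642 with a median of 1904 in muscle. The exchange of isoforms held in every animal. The log2 differences were 4.46 for SLC25A13 (SE 0.24, limma adjusted p = 8.19e-11) and -5.03 for SLC25A12 (SE 0.21, limma adjusted p = 2.62e-12).

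The glutamate carrier SLC25A22 ranged from 803 to 3162 normalized reads with a median of 2713 in liver and from 30.5 to 48.7 with a median of 37.3 in muscle. Its lowest liver, 902, was still far above every muscle, and the log2 difference was 5.81 (SE 0.26, limma adjusted p = 6.22e-12). SLC25A11, which exchanges oxoglutarate for malate in the same shuttle, went the other way. It had 181 to 467 with a median of 299 in liver and 2100 to 3688 with a median of 2665 in muscle, a log2 difference of -3.20 (SE 0.21, limma adjusted p = 6.76e-10). The dicarboxylate carrier SLC25A10 was higher in liver by 2.77 (SE 0.35), without overlap between the tissues. The oxoadipate carrier SLC25A21, which met the mean in liver alone, had an estimate of 2.33, with liver 902 inside the range of muscle.

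Of the 7 members grouped as carriers of other amino acids and of choline, 5 were higher in liver and none was lower at the threshold. SLC25A48 and SLC25A45, counted among the 5, met the mean in liver alone, so their direction was built into the filter, and they are described without a test. SLC25A48, linked to choline import, had 88.6 to 369.6 normalized reads with a median of 233 in liver and 0 to 5.06 with a median of 0.405 in muscle. In muscle it was at 0 in 4 of 8 libraries and had 10 reads over all of them (95% exact Poisson interval 4.8 to 18.4, counting error only), against 2121 reads in liver. Its log2 estimate of 7.01 depends on the pseudocount. SLC25A45, a relative of the basic amino acid carriers, had 18.8 to 172 with a median of 93.7 in liver and 0 to 7.02 with a median of 3.66 in muscle, where it had 27 reads in all (17.8 to 39.3). Both were present in liver and close to the detection limit in muscle.

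SLC25A47 is a carrier known mainly from hepatocytes. It ranged from 1423 to 18340 normalized reads with a median of 9189 in liver and from 92.5 to 187 with a median of 111 in muscle. The lowest liver was 902 and the others had at least 4807, and the log2 difference was 6.03 (SE 0.40, limma adjusted p = 1.21e-09). SLC25A29, a carrier of basic amino acids whose gene lies next to SLC25A47 in the reference gene table, had 1138 to 3931 with a median of 1979 in liver and 239 to 357 with a median of 303 in muscle, a log2 difference of 2.83 (SE 0.16, limma adjusted p = 1.18e-10). The ornithine carrier SLC25A15, a part of the urea cycle, was higher in liver by 2.81 (SE 0.21) without overlap. The branched-chain amino acid carrier SLC25A44 and the glycine carrier SLC25A38 differed by -0.13 and -0.06 and did not pass. Without the 4 livers under 15 M reads SLC25A44 turned to 0.57.

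**Figure D2:**
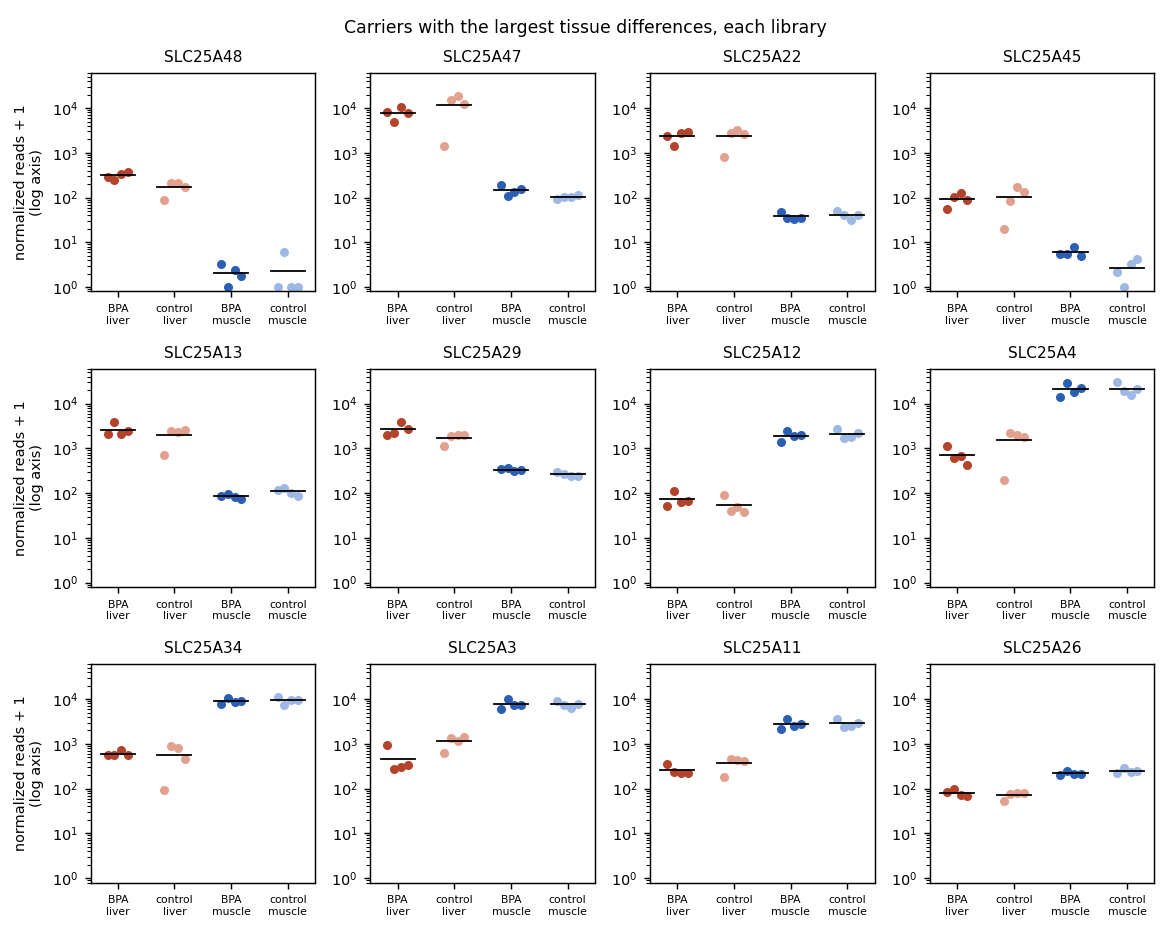
Normalized reads plus 1, on a log axis, in each of the 16 libraries for the 6 members per direction with the largest tissue difference. Points are libraries, in the order of the sheep numbers given in the text, and bars are group means. The first 6 panels lie higher in liver and the last 6 lower, and control liver 902 is the lowest liver in most panels, with 1423 normalized reads of SLC25A47.

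Cofactor, nucleotide and glutathione carriers were split, 2 of 11 being higher and 5 lower in liver. SLC25A26, which imports S-adenosylmethionine, had 50.9 to 95.8 normalized reads with a median of 76.2 in liver and 201 to 291 with a median of 225 in muscle. The tissues did not overlap, and the log2 difference was -1.63 (SE 0.14, limma adjusted p = 2.56e-08). The pyrimidine nucleotide carriers SLC25A36 and SLC25A33, the folate and FAD carrier SLC25A32 and the NAD carrier SLC25A51 were lower in liver by log2 differences of -1.26 to -0.86. In control animals only SLC25A36 (-1.14, limma adjusted p = 0.103) and SLC25A51 (-0.72, limma adjusted p = 0.0519) did not pass. Both were higher in liver than in muscle in animal 902, SLC25A36 at 769 against 380 and SLC25A51 at 381 against 352. The glutathione carriers parted: SLC25A40 was higher in liver by 1.51 (SE 0.25, limma adjusted p = 4.03e-05). SLC25A39 differed by -0.27 (limma adjusted p = 0.474), and by 0.70 without the 4 livers under 15 M reads. SLC25A16 was higher by 1.03, but in BPA animals only it was at 0.83 and did not pass (limma adjusted p = 0.0842). The coenzyme A carrier SLC25A42 (-0.02) and the peroxisomal SLC25A17 (0.48) did not pass. Without the 4 livers under 15 M reads they were at 0.40 and 0.82, and SLC25A17 passed with TMM scaling (0.50, limma adjusted p = 0.048).

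Both mitoferrins, which import iron for haem and iron-sulfur clusters, differed, but in opposite directions. SLC25A28, the mitoferrin of non-erythroid cells, had 1313 to 3424 normalized reads in liver and 494 to 661 in muscle, a log2 difference of 1.88 (SE 0.15, limma adjusted p = 1.56e-08). SLC25A37, the mitoferrin of developing red cells, had 345 to 640.0 in liver and 817 to 1058 in muscle, a log2 difference of -1.12 (SE 0.13). The further row SLC25A37_1 differed by -1.15 (SE 0.13). The reference gene table holds a neighbouring gene with SLC25A37 as a synonym, and the split of reads between the rows is uncertain. Among the relatives of the uncoupling proteins, SLC25A30 was higher in liver by 1.11 (SE 0.23) and SLC25A27 by 0.70 (SE 0.25, adjusted p = 0.0197), and SLC25A14 did not pass. In control animals only SLC25A30 was at 0.75 and did not pass (limma adjusted p = 0.081). The call of SLC25A27 was lost without animal 908, 918, 924 or 977 (0.56 to 0.67). Its estimate was 0.34 without the 4 livers under 15 M reads and -0.03 in control animals alone. Of the members with a less settled substrate, SLC25A34 had 94.2 to 892 normalized reads with a median of 560.1 in liver and 7332 to 11280 with a median of 9294 in muscle. That is a log2 difference of -4.19 (SE 0.35, limma adjusted p = 1.6e-08), while SLC25A46, an outer membrane protein involved in mitochondrial shape, differed by -0.74 and SLC25A35 did not pass.

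The direction was the same in 8 of 8 animals for 24 of the 39 members, against 51.8% of all genes tested. All 8 livers lay outside the range of all 8 muscles for 20 members, 10 in each direction, where 20.1% of genes lay above and 20.8% below (40.9% in all). SLC25A21, SLC25A45 and SLC25A48 are among the 24, and SLC25A45 and SLC25A48 are among the 10 above. Their direction was built into the filter, so these counts are no support from them. edgeR and DESeq2 on whole reads each called 15 members higher, SLC25A21, SLC25A45 and SLC25A48 among them, and 14 lower, against 72.9% and 75.3% of all genes called in either direction. Their estimates centred the genes differently, with a median over all genes of 0.22 for edgeR and 0.18 for DESeq2 against 0.09 here, and the signs of the called members did not change. With the animal as a block 28 members passed, SLC25A27 being lost, against 69.5% of all genes. Without livers 902 and 910 31 passed, 15 higher (40.9% of all genes) and 16 lower (39.4%).

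For some liver carriers the muscle level was no larger, relative to liver, than that of hepatocyte genes. Mean levels of the 9 hepatocyte markers in muscle were 0.799% to 1.99% of those in liver, with a median of 1.01%, albumin (ALB) being at 1.16%. SLC25A48 at 0.491%, SLC25A47 at 1.26% and SLC25A22 at 1.62% were below or inside that range. SLC25A45 was at 3.46% and SLC25A13 at 4.2%, above it, and the other 10 carriers that were higher in liver stood at 12.7% to 55.3%. In the other direction the 11 muscle fibre markers in liver were at 0.00166% to 0.0898% of their muscle level, and every carrier that was lower in liver was well above them, from 3.15% for SLC25A12 and 5.37% for SLC25A4 to 60.9% for SLC25A6. The part that hepatocyte RNA in muscle libraries has in these low muscle values was not tested.

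**Figure D3:**
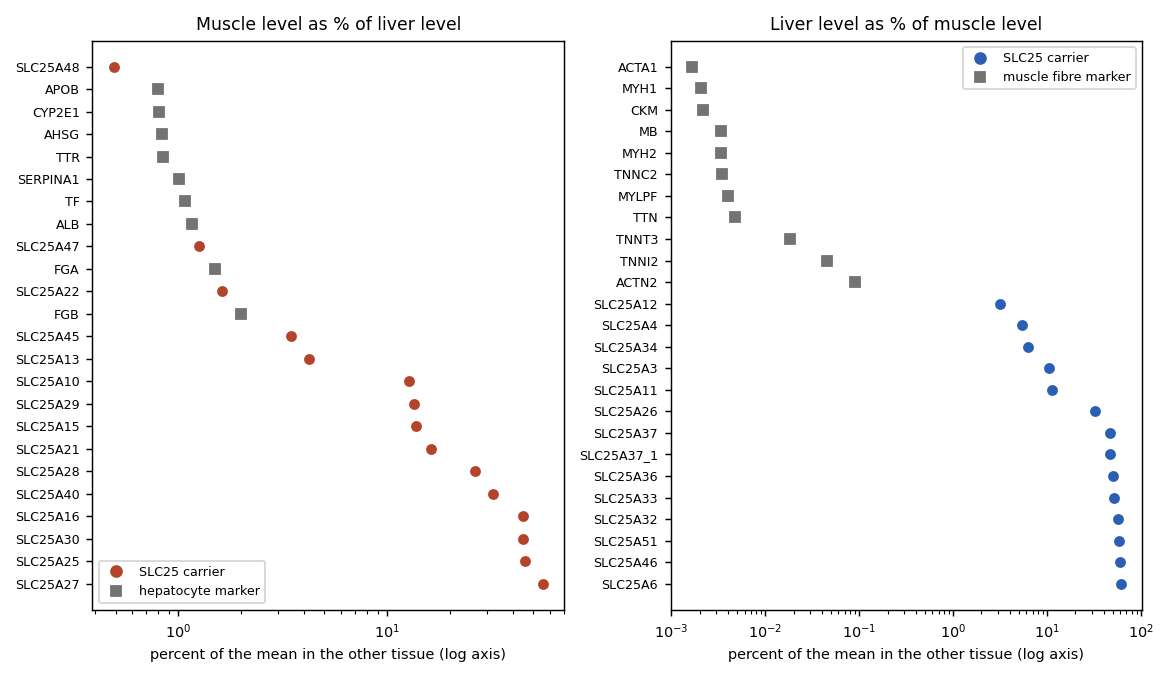
Level in the tissue with less, as a percent of the level in the tissue with more, on log axes. Circles are SLC25 members past the threshold and squares are cell type markers found in the table. In the left panel SLC25A48, SLC25A47 and SLC25A22 lie among or below the hepatocyte markers (0.799% to 1.99%), and in the right panel all carriers lie above the muscle fibre markers (at most 0.0898%).

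Genes that act beside the carriers were mostly lower in liver. Of 16 genes of the carrier import machinery, 10 were lower and 1 was higher in liver, among them TOMM7, a subunit of the outer membrane translocase (-1.96, SE 0.16), and TIMM22, the inner membrane insertase for carriers (-2.40, SE 0.20). All 7 shuttle enzymes were lower in liver, among them the mitochondrial glycerol phosphate dehydrogenase GPD2 (-4.92, SE 0.21) and the malate dehydrogenase MDH2 (-3.61, SE 0.39). Of 10 tested genes of the pyruvate carrier, calcium uniporter and outer membrane channels, 8 were lower and 1 was higher. Among the lower ones was the outer membrane channel VDAC3 at -4.62 (SE 0.22). The higher one met the mean of 10 through liver alone, so its direction was built into the filter. Of 4 tested SLC25 genes under other symbols, 2 were lower and 1 was higher, UCP2, by 2.28 (SE 0.27). UCP3 had 0 to 6.24 normalized reads in liver and 1998 to 4325 in muscle, so it met the mean of 10 through muscle alone and its direction was built into the filter. The lists are described by counts only, beside the 35% of all genes that were lower and the 36.6% that were higher in liver.

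In liver, no SLC25 member separated BPA from control animals at an adjusted p under 0.05, and none of the 15689 genes tested did (0%) by limma or edgeR. DESeq2 called 0 members as well, and 1.34% of the genes for which it gave an adjusted p. At an unadjusted p under 0.05 there were 5 members by limma, 3 higher and 2 lower in BPA liver. Of all genes, 18.1% were that low in p, 7.80% higher and 10.3% lower. edgeR gave 5 members (18.1% of all genes) and DESeq2 6 (20.5%). The 5 members with the smallest p were the ADP/ATP carrier SLC25A6 and the phosphate carrier SLC25A3 on the lower side, and SLC25A37_1, SLC25A27 and SLC25A48 on the higher side. Estimates were above 0 for 20 of 39 members (16 of 39 by edgeR), against 49.3% of all genes.

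SLC25A6 had 1846, 275, 504 and 493 normalized reads in BPA livers, against 1898, 2001, 2135 and 2209 in control livers. All BPA livers were below all controls, but 910 was close to them and the rest were far below. The log2 difference was -1.79 (SE 0.51, limma adjusted p = 0.256). SLC25A3 had 937, 277, 306 and 339 in BPA livers and 635, 1365, 1179 and 1397 in control livers, so 910 and the control 902 overlapped while the rest did not. Its log2 difference was -1.43 (SE 0.44, limma adjusted p = 0.256). For the glutathione carrier SLC25A39, 910 was again the highest BPA liver and 902 the lowest control, with 1662, 283, 593 and 464 in BPA livers and 507, 1981, 1708 and 1953 in control livers. Its log2 difference of -1.17 had a larger error (SE 0.61, limma adjusted p = 0.315).

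On the higher side, SLC25A37_1 had 102, 108, 136 and 136 normalized reads in BPA livers and 56.5, 79.1, 61.9 and 63.1 in control livers. The groups did not overlap, 910 included, and the log2 difference was 0.88 (SE 0.27, limma adjusted p = 0.256). Its namesake SLC25A37 had a difference of 0.52 (limma adjusted p = 0.319). SLC25A27 had 35.2, 93.7, 88.6 and 60.5 in BPA livers and 20.7, 33.03, 31.3 and 28.2 in control livers, with 910 just above the highest control. The log2 difference was 1.19 (SE 0.40, limma adjusted p = 0.256). SLC25A48 had 287, 252, 337 and 369.6 in BPA livers and 88.6, 209.9, 215 and 174.5 in control livers, again without overlap, with a log2 difference of 0.92 (SE 0.34, limma adjusted p = 0.256).

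The ADP/ATP carrier SLC25A4 and both aspartate-glutamate carriers did not pass in liver. SLC25A4 had 1102, 614, 666 and 429 normalized reads in BPA livers and 194, 2247, 2003 and 1826 in control livers, where 902 was the lowest of all 8 and the other controls were the highest. Its log2 difference was -0.76 (SE 0.73, limma adjusted p = 0.568). SLC25A13 had 2060, 3852, 2078 and 2412 in BPA livers and 699, 2390, 2304 and 2508 in control livers, a log2 difference of 0.51 (SE 0.46, limma adjusted p = 0.542). SLC25A12 had 51.2, 112, 61.1 and 67.2 in BPA livers and 88.6, 39.9, 46.9 and 37.6 in control livers, a log2 difference of 0.47 (SE 0.39, limma adjusted p = 0.502). In each of the 3 the control 902 lay apart from the other controls. In all, 5 members had BPA and control livers that did not overlap, against 7.61% of all genes (3.63% above and 3.98% below): SLC25A37_1, SLC25A48, SLC25A29 and SLC25A27 above, and SLC25A6 below.

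These results in liver turned on 2 libraries. Without BPA liver 910, 4 members passed, against 16.5% of all genes: SLC25A6 (-2.33, limma adjusted p = 0.0053) and SLC25A3 (-1.83, limma adjusted p = 0.0123) fell, and SLC25A27 (1.48, limma adjusted p = 0.0257) and SLC25A37_1 (0.95, limma adjusted p = 0.045) rose. Of all genes 7.34% were then higher and 9.15% lower. Without both 902 and 910, 15 members passed, 4 higher and 11 lower in BPA liver, against 19.7% and 23.5% of all genes (43.1% in all). The higher ones were SLC25A37_1, SLC25A12, SLC25A48 and SLC25A27. The lower ones were led by SLC25A6 (-2.37, limma adjusted p = 0.000553), SLC25A39 (-2.13, limma adjusted p = 0.00105), SLC25A3 (-2.09, limma adjusted p = 0.000273) and SLC25A4 (-1.85, limma adjusted p = 0.000757), and also held SLC25A44, SLC25A17, SLC25A32, SLC25A10, SLC25A11, SLC25A47 and SLC25A16.

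In that comparison of 3 against 3, however, the BPA livers held 4.66 to 10.64 M reads and the control livers 17.93 to 19.28 M, so library depth and BPA cannot be told apart there. Hepatocyte markers summed to 287700 to 459300 normalized reads in these BPA livers and to 1297000 to 1477000 in these controls. Macrophage and Kupffer cell markers also moved with the groups of 4. The 9 found of 11 listed summed to 1035 to 5693 normalized reads in BPA livers and 6150 to 9243 in control livers. Liver 910 held the 5693, and the other BPA livers had at most 2195. The 5 cholangiocyte markers summed to 160 to 285 in BPA livers and 410.1 to 1257 in control livers. Single markers of both lists overlapped between the groups, among them MARCO, VSIG4 and CFTR. The part of these cell types in the carrier differences was not tested.

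**Figure D4:**
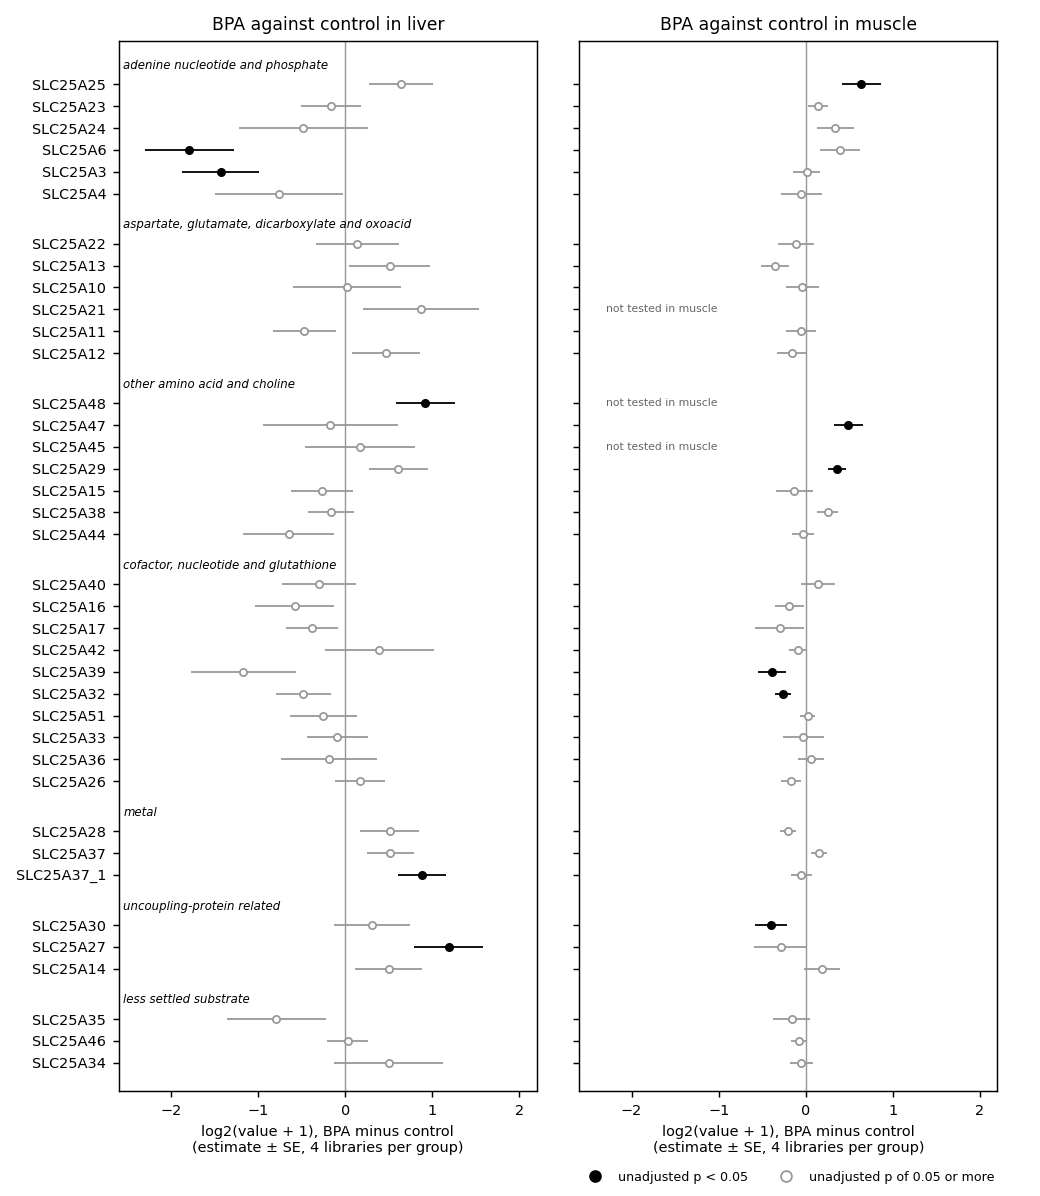
Difference between BPA and control animals for 38 of the 39 SLC25 members in liver (left) and muscle (right), on the log2(value + 1) scale with standard errors, 4 libraries per group. Filled points have an unadjusted p under 0.05, which 5 members have in liver and 6 in muscle; none passed an adjusted p of 0.05 with all libraries. Errors are wider in liver, where SLC25A6 reaches -1.79.

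By role, the liver estimates were below 0 for 5 of 6 adenine nucleotide and phosphate carriers (median log2 difference -0.62) and for 8 of 11 cofactor, nucleotide and glutathione carriers (-0.25). They were above 0 for 5 of 6 aspartate, glutamate, dicarboxylate and oxoacid carriers (0.30), for all 3 metal carrier rows (0.52) and for all 3 relatives of the uncoupling proteins (0.50). The carriers of other amino acids and choline were split, 3 above and 4 below 0 (-0.16). Those of less settled substrate had 2 above and 1 below (0.03). Over all 39 members the median was 0.02, and it was -0.01 over all genes. None of the related lists had a gene past the threshold in liver. Estimates there were below 0 for 14 of 16 genes of the import machinery, 6 of 7 shuttle enzymes, 7 of 10 genes of the pyruvate carrier, uniporter and channels, and 3 of 3 SLC25 genes under other symbols. Without livers 902 and 910, 11 of the 16 import genes, 5 of the 7 shuttle enzymes and 6 of the 10 in the third list were lower in BPA liver at the threshold, against 23.5% of all genes, with the same gap in depth between the groups. In that fit the 6 aspartate, glutamate, dicarboxylate and oxoacid carriers had 1 higher and 2 lower. The 7 carriers of other amino acids and choline also had 1 higher and 2 lower. Of the adenine nucleotide and phosphate carriers 3 of 6 were lower, and of the cofactor, nucleotide and glutathione carriers 4 of 11. The metal carriers and the relatives of the uncoupling proteins had 1 higher each, against 19.7% of all genes.

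In muscle the 36 members tested spread less, and BPA and control animals again did not differ at the threshold. limma, edgeR and DESeq2 each called 0 members, where limma called 19 of 14706 genes (0.129%), edgeR 0.129% and DESeq2 0.891%. At an unadjusted p under 0.05 there were 6 members, 3 in each direction, against 7.77% of all genes (3.76% higher and 4.01% lower). edgeR gave 6 (8.02%) and DESeq2 7 (7.52%). Estimates were above 0 for 14 of 36 members, against 49.5% of all genes. Within groups the median SD of the members on the log2 scale was 0.25 in BPA muscle and 0.19 in control muscle, compared with 0.46 in BPA liver and 0.59 in control liver.

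SLC25A29, the basic amino acid carrier, had 338, 357, 313 and 325 normalized reads in BPA muscles and 292, 266, 239 and 244 in control muscles. All BPA muscles were above all controls, and the log2 difference was 0.36 (SE 0.10, limma adjusted p = 0.317). Its neighbour SLC25A47 had 187, 109, 133 and 151 in BPA muscles and 92.5, 100.3, 99.7 and 113 in control muscles, with overlap between BPA 918 and control 928. The log2 difference was 0.49 (SE 0.16, limma adjusted p = 0.459). Hepatocyte markers summed to 5110 to 10520 in BPA muscles and 10670 to 15980 in control muscles. Between the groups that is the opposite order to SLC25A47, but within BPA muscles 910 was highest and 918 lowest for both. Their part in the difference was not tested.

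SLC25A25, the ATP-magnesium carrier, had 1061, 2229, 2566 and 2079 normalized reads in BPA muscles and 1056, 1211, 1260 and 1311 in control muscles. All BPA muscles but 910 were above every control, and 910 was at the level of the lowest control, and the log2 difference was 0.64 (SE 0.22, limma adjusted p = 0.476). Without BPA muscle 910 it was 0.92 (limma adjusted p = 0.0047), the only member to pass there, against 0.0341% of all genes called higher. Without muscles 902 and 910 it was 0.86 (limma adjusted p = 0.0056), again as the only member, against 0.0684%. In liver the same gene had 3318, 4735, 4919 and 3768 in BPA animals and 1587, 4001, 3107 and 2511 in controls, a log2 difference of 0.64 (SE 0.37, limma adjusted p = 0.355), with overlap.

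On the lower side in muscle, SLC25A32 had 201, 213, 223 and 209 normalized reads in BPA muscles and 263, 254, 248 and 245 in control muscles. All BPA muscles were below all controls, by a small amount, with a log2 difference of -0.26 (SE 0.091, limma adjusted p = 0.489). SLC25A39 had 739, 1135, 1009 and 965 in BPA muscles and 1686, 1134, 1141 and 1114 in control muscles, and SLC25A30 had 1026, 1431, 1089 and 1180 in BPA muscles and 2367, 1304, 1395 and 1329 in control muscles. In both the control 902 was far above the other controls, and the log2 differences were -0.39 (SE 0.16, limma adjusted p = 0.563) and -0.40 (SE 0.18, limma adjusted p = 0.641). SLC25A29 and SLC25A32 were the 2 members whose BPA and control muscles did not overlap, against 4.53% of all genes (2.05% above and 2.48% below).

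**Figure D5:**
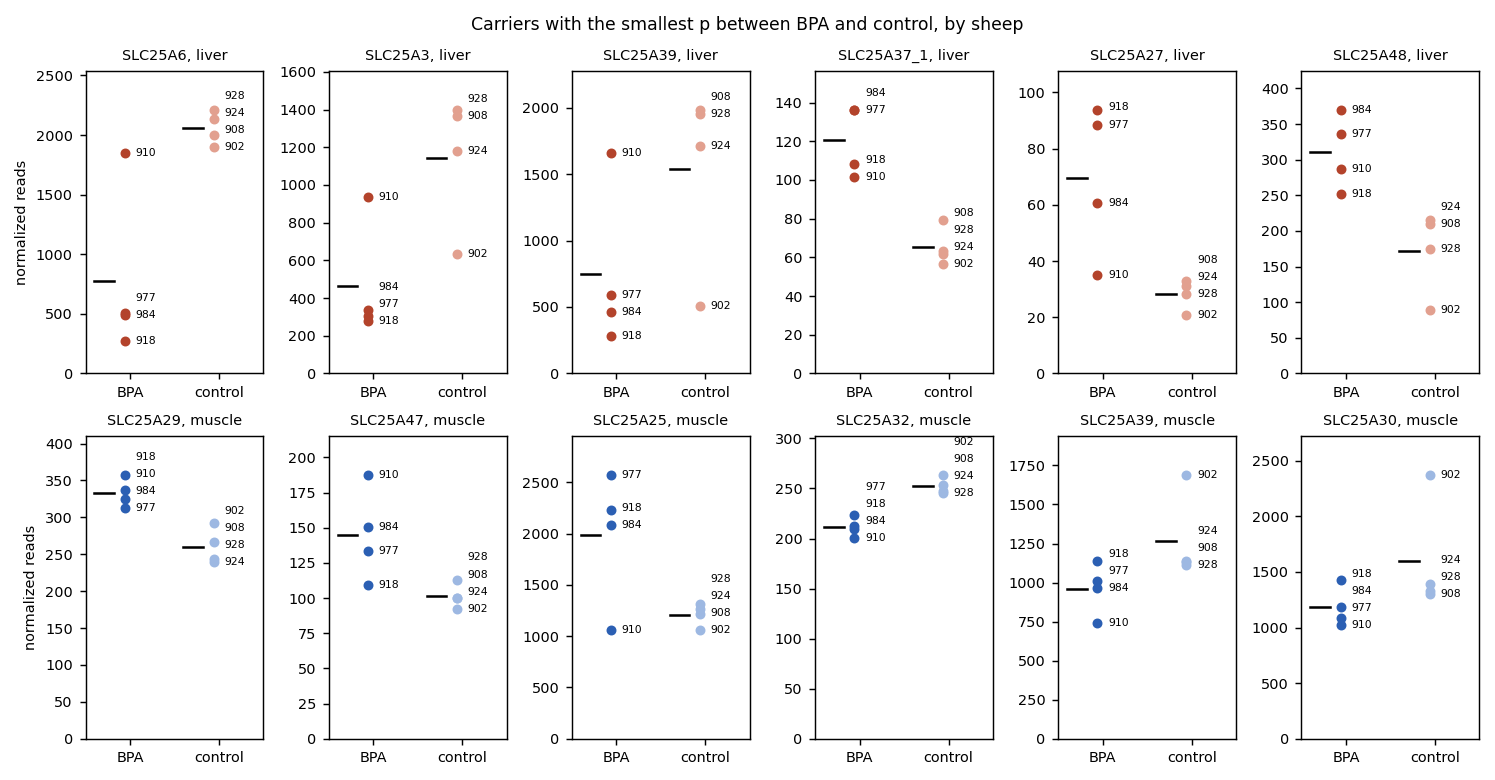
Normalized reads in each sheep for the 3 members per direction with the smallest p between BPA and control animals, in liver (top) and in muscle (bottom). Points are libraries labelled by sheep number and short bars are group means. In SLC25A6, SLC25A3 and SLC25A39 the BPA liver 910 lies above the other BPA livers, toward the controls (1846 normalized reads of SLC25A6). In SLC25A25 the BPA muscle 910 is at the level of the lowest control (1061 normalized reads).

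Among the ADP/ATP and aspartate-glutamate carriers, BPA and control muscles overlapped for every member tested. SLC25A4 had 14180, 29500, 17850 and 22060 normalized reads in BPA muscles and 29720, 19300, 15710 and 20950 in control muscles, a log2 difference of -0.05 (SE 0.23, limma adjusted p = 0.971) that changed sign when single animals were left out. SLC25A12 had 1373, 2408, 1870 and 1938 in BPA muscles and 2642, 1736, 1827 and 2215 in control muscles, a log2 difference of -0.16 (SE 0.17, limma adjusted p = 0.859). In both, 910 was the lowest muscle of the BPA group and 902 the highest of the control group. SLC25A6 had 1807, 1939, 4240 and 2829 in BPA muscles and 1803, 2313, 1704 and 2016 in control muscles, and SLC25A13 had 86.9, 96.7, 81.4 and 71.3 in BPA muscles and 119, 126, 102 and 84.2 in control muscles. Their log2 differences were 0.39 (SE 0.23, limma adjusted p = 0.739) and -0.35 (SE 0.16, limma adjusted p = 0.648).

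In the related lists no gene passed in muscle. Estimates were below 0 for 10 of 16 genes of the import machinery, 6 of 7 shuttle enzymes, 7 of 9 genes of the pyruvate carrier, uniporter and channels, and 4 of 4 SLC25 genes under other symbols.

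Whether BPA acted differently in the tissues was tested as the difference of the BPA effects, liver minus muscle, for the 36 members with a mean of 10 in each tissue. No member passed with limma or edgeR, where none of 13677 genes did (0%), and none passed with the animal as a block (0% of all genes). At an unadjusted p under 0.05 there were 5 members, against 19.5% of all genes, and 15 of 36 estimates were above 0, against 47.7%. SLC25A6 had the smallest p, with a difference of -2.17 (SE 0.60, limma adjusted p = 0.195): it was lower in BPA than control livers, while its highest muscle value was in a BPA animal. SLC25A3 had a difference of -1.44 (SE 0.49, limma adjusted p = 0.202), with overlapping muscle values of 6159, 10240, 7463 and 7385 in BPA animals and 9077, 7478, 6445 and 7755 in controls. The glycine carrier SLC25A38 had 166, 131, 168 and 145 normalized reads in BPA livers and 139, 142, 210.4 and 199 in control livers. In muscle it had 202, 176, 182.5 and 170.2 in BPA animals and 140.0, 145, 184 and 146 in controls. Both pairs of groups overlapped, and the difference was -0.41 (SE 0.26, limma adjusted p = 0.373).

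On the positive side SLC25A37_1 had a difference of 0.93 (SE 0.26, limma adjusted p = 0.195), and DESeq2 called it alone among the members (0.96, DESeq2 adjusted p = 0.0318), with 1.13% of all genes called. Its muscle values were 175, 202, 187 and 207.5 in BPA animals and 229, 217, 171 and 186 in controls, and thus overlapped while its liver values did not. SLC25A27 had 36.8, 19.2, 16.8 and 24.3 in BPA muscles and 23.1, 28.7, 22.3 and 44.97 in control muscles, with overlap, and a difference of 1.48 (SE 0.50, limma adjusted p = 0.202). The mitoferrin SLC25A28 had a difference of 0.71 (SE 0.31, limma adjusted p = 0.238). SLC25A28 had 1918, 1995, 3312 and 3424 normalized reads in BPA livers and 1313, 2092, 2070 and 1868 in control livers, and 494, 546, 627 and 524 in BPA muscles and 661, 633, 631 and 591 in control muscles. Its liver and muscle estimates had opposite signs, at 0.51 and -0.20. The aspartate-glutamate carriers SLC25A13 and SLC25A12 had differences of 0.86 and 0.63, and SLC25A4 of -0.71, none near the threshold. Without liver 910 alone, 5 members passed, against 25.9% of all genes, and without livers 902 and 910 there were 13, against 46.9%, with the depth of the groups again apart.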

How the data were processed

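RNA of 8 livers and 8 muscles was sequenced after ribosome depletion, per the labels' protocols. The submitters' processing notes name Trimmomatic, FastQC and DESeq2 1.24.0. An aligner, genome build, annotation or strand setting is not given in the sources used here. The deposited values are a signal: gene counts that the authors divided by size factors. At least 99.989% of values per library were whole multiples of the library's step (tolerance 0.1 reads), so whole reads were recovered for count tests.

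Values were tested as log2(value + 1) with limma 3.58.1 (R 4.3.3; trend, Benjamini-Hochberg adjustment over all genes with a mean of at least 10, threshold 0.05). Each tissue was fitted alone for BPA against control. Liver against muscle, and the difference of the BPA effects, came from a fit of 4 groups over 16 libraries. edgeR 4.0.16 and DESeq2 1.42.0 on recovered reads, other pseudocounts and filters, TMM scaling, an animal block and left-out libraries were alternatives. Fits without muscles 902 and 910, without the 4 livers under 15 M reads, and without liver 902 or liver 910 only were added after the data were seen. Per-library values are given for the 6 called members per direction with the largest tissue difference, for the 3 per direction with the smallest p where BPA was compared and too few passed, and for SLC25A4, SLC25A6, SLC25A12 and SLC25A13; of a related list up to 2 genes with the smallest p are named. The scripts were tested on simulated data. Of 28524 rows, 3425 were at 0 in every library.

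Both tissues came from the same sheep, per the labels, so the samples are paired by animal. Deviations of a sheep's liver from its group mean correlated with those of its own muscle at -0.10 to 0.12. The best correlation with the muscle of another sheep was 0.09 to 0.17, so these values do not check the pairing given by the labels. No replicates were duplicates (chi-square per gene at least 17.6). Of 39 members, 38 matched the ARS-UI_Ramb reference gene table, used only for names and neighbours. The members and lists were chosen with earlier results of these data known. Intervals cover counting error only. The values of 1 member and of 1 gene of a related list are not reported here, though both stay in the fits and counts.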

Additional observations from a re-analysis of the deposited data

Results flagged for a closer look

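For each of the 39 members in each group of 4 libraries, the gap between the highest or lowest value and the nearest other was divided by the whole range, and 22 of 156 groups exceeded Dixon's 95% critical value. About 1 in 20 groups would exceed it if values were normally distributed. The share over all genes was not computed, so the count is not a result about these members in particular.

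Control liver 902 held 8 of them. It was lowest for SLC25A10 (ratio 0.975), with 119 normalized reads against 889.7 to 909 in the other controls, for SLC25A13 (0.887), with 699 against 2304 to 2508, and for SLC25A29 (0.889), with 1138 against 1880 to 1973. It was also lowest for SLC25A26 (0.873), with 50.9 against 75.0 to 78.5, and for SLC25A44 (0.836), with 205 against 671 to 762. It was highest for SLC25A36 (0.926), with 769 against 118 to 166, for SLC25A24 (0.906), with 258 against 19.9 to 42.3, and for SLC25A51 (0.832), with 381 against 152 to 191.

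Among BPA livers, 910 was highest for SLC25A6 (0.854), with 1846 against 275 to 504, for SLC25A3 (0.907), with 937 against 277 to 339, and for SLC25A11 (0.887), with 362 against 219 to 235. Liver 918 was highest for SLC25A40 (0.923), with 287 against 109 to 123, and lowest for SLC25A37 (0.839), with 354 against 594 to 640.0. Liver 977 was highest for SLC25A34 (0.934), with 717 against 553 to 564.

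Among BPA muscles, 910 was highest for SLC25A22 (0.856), with 47.9 against 32.3 to 34.5. Muscle 977 was highest for SLC25A37 (0.830), with 1058 against 1005 to 1014, and lowest for SLC25A42 (0.934), with 993.8 against 1135 to 1145. Among control muscles, 902 was highest for SLC25A39 (0.953), with 1686 against 1114 to 1141, and for SLC25A30 (0.914), with 2367 against 1304 to 1395. Muscle 924 was highest for SLC25A17 (0.951), with 174.8 against 71.6 to 76.7, and for SLC25A38 (0.855), with 184 against 140.0 to 146. Muscle 908 was the only control muscle with any SLC25A48 (1), at 5.06 against 0. The ratio is 1 whenever the other values are equal, and SLC25A48 did not meet the mean in muscle.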

How the results depend on the processing

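In liver, members called between BPA and control numbered 0 with all libraries, 0 to 4 when each library was left out in turn (4 without BPA liver 910) and 15 without livers 902 and 910. In muscle they numbered 0, then 0 to 1 (1 without BPA muscle 910) and 1 without muscles 902 and 910. For the difference of the BPA effects they numbered 0, then 1 with DESeq2, 0 to 4 when each animal was left out (4 without animal 910), 5 without liver 910 only and 13 without livers 902 and 910. With the animal as a block, the paired fit called 28 members between the tissues and 0 for the difference of the effects. Signs turned for SLC25A4 in muscle, at -0.23 to 0.12 over left-out libraries and 0.29 without muscles 902 and 910, and for SLC25A12 in muscle, at 0.10 without those muscles. Between tissues, 23 of the values under alternatives turned sign. In control animals only these were SLC25A6 (0.08), SLC25A44 (0.18), SLC25A39 (0.12), SLC25A38 (0.15) and SLC25A27 (-0.03), and in BPA animals only SLC25A42 (0.22) and SLC25A35 (-0.03). Without the 4 livers under 15 M reads, with 910 as the only BPA liver left, they were SLC25A44 (0.57), SLC25A42 (0.40), SLC25A39 (0.70), SLC25A23 (0.06), SLC25A35 (-0.10) and SLC25A38 (0.05). In that fit SLC25A6 stood at -0.17 and SLC25A27 at 0.34, with their signs unchanged. SLC25A42 was 0.30 without livers 902 and 910, 0.21 with edgeR and 0.17 with DESeq2, and SLC25A44 was 0.05 with edgeR and 0.02 with DESeq2. Over left-out animals SLC25A44 ranged from -0.35 to 0.12, SLC25A42 from -0.22 to 0.36 (0.07 without animal 918) and SLC25A39 from -0.58 to 0.03. Calls were lost without a turned sign for SLC25A36 (-1.14), SLC25A51 (-0.72) and SLC25A30 (0.75) in control animals only, and for SLC25A16 (0.83) in BPA animals only. In the fit with the block SLC25A27 (0.70) was lost. The causes were not tested. Over all genes, DESeq2 called 196 in liver, 131 in muscle (limma 19) and 148 for the difference, and without BPA liver 910 limma called 2595 in liver. Between tissues, 713 of the values under alternatives stayed on the same side of the threshold with the same sign. The liver libraries of 4.39 to 10.64 M reads limit what can be said of BPA in liver.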
